A study of Arabidopsis thaliana and Zea mays with 12 samples.

Results

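The genes described here were grouped as nutrient metabolism genes of maize leaves: the nitrate reductase gene NNR1, the gene listed as nar, the methionine S-methyltransferase gene MMT1 and the phosphate transporter gene pht1. These 4 genes were read by 5 probe sets, a probe set being the group of array probes that together give 1 transcript's signal. The 5 were all the probe sets annotated to exactly 1 of the 4 symbols, out of 17621 on the maize array and 40367 on the maize and Arabidopsis arrays of the series together. NNR1 was read by Zm.1826.1.A1_at, MMT1 by Zm.648.1.S1_at and pht1 by Zm.7659.1.S1_at. The gene nar was read by Zm.125.1.S1_at and Zm.125.1.A1_at, called nar S1 and nar A1 from here on. The genes had been chosen by their difference between the lines in an earlier look at these same arrays, so their B97 against B73 values are a description and no p-value of theirs is used as support.

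B97 and B73 are inbred maize lines, and each was measured on 3 one-colour Affymetrix arrays that the labels call biological replicates. The material was the shoot above the coleoptile of plants aged 2 weeks, labelled as adult leaf. Plants of both lines had been imbibed for 2 days, grown in a glasshouse at 22 °C with a photoperiod of 16 h, and cut near the middle of the light period. RNA of several plants was pooled for each array, so the spread between arrays is a spread between pools. In such bulk samples fewer cells of a type and less RNA per cell cannot be told apart.

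Nitrate reductase converts nitrate to nitrite in the cytosol, the step that commits nitrate to assimilation, and carries a molybdenum cofactor. Its gene is known in plants to respond to nitrate, light and the time of day. Methionine S-methyltransferase makes S-methylmethionine, a form in which sulfur and methyl groups travel in the phloem, and homocysteine S-methyltransferase turns it back into methionine. Phosphate transporters of the PHT1 family carry phosphate across the plasma membrane together with protons and are best known from roots, where phosphate shortage raises them. The annotation gives nar as a symbol with no product.

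The tissue label was set against leaf and seed markers. The chlorophyll a/b-binding protein gene Cab-m7 read between 1525 and 5116 on the B97 arrays and between 1968 and 4123 on the B73 arrays, and por, for protochlorophyllide reductase, between 796 and 1308 in B97 and between 982 and 1338 in B73. Of 4 leaf photosynthesis probe sets, 0 passed the test between the lines by limma, also at an unadjusted p under 0.05. An adjusted p of 0.05 was passed by 27.4% of all maize probe sets, so 0 of 4 is not read as equal tissue in the lines. The 14 probe sets of endosperm zeins, which mark seed tissue, reached at most 22.1 on any array, and their summed signal was 22.5 to 48.8 in B97 and 26.9 to 45.3 in B73.

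NNR1 was lower in B97. Its deposited intensity was 279, 207 and 173 on the B97 arrays, against 448, 403 and 334 on the B73 arrays. The highest B97 array lay below the lowest B73 array. The mean was 219 ± 54.1 in B97 and 395 ± 57.5 in B73 (SD, n = 3 each), a ratio of means of 0.555 for B97 over B73. The log2 change was -0.83 ± 0.082 (SE) in a limma fit that treats the replicate number as a block. The values of this fit are log2(intensity + 16) after quantile normalization. In the 3 same-numbered pairs of arrays the differences were -0.70, -0.94 and -0.85.

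The gene listed as nar had the widest gap between the lines among the 4. The nar S1 probe set read 28.3, 18.4 and 14.3 in B97, against 102, 138 and 101 in B73. All B97 values were below the median probe set of their own array and all B73 values above it, the array medians being 33.7 to 40.3. The mean was 20.3 ± 7.22 in B97 and 113 ± 21.0 in B73 (SD, n = 3 each). The brightest zein value, 22.1, came from 1 probe set of the zein gene gz27 on the second B73 array. On the B97 arrays that probe set read 13.6, 17.5 and 17.4, and nar S1 was dimmer than it on the third B97 array only. All other zein probe sets read at most 6.97, below every nar S1 value. The size of the nar S1 gap depends on how dim signals are treated. The log2 change was -1.79 ± 0.14, with pair differences of -1.40, -2.06 and -1.92. It was -2.38 with a pseudocount of 1 in place of 16, and -1.05 with a pseudocount of 64. With the pseudocount of 16, 186 of the 17621 maize probe sets had a more negative change. The gene was chosen on this contrast, so that place is a description.

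A second nar probe set did not show this gap. The nar A1 probe set read 2.30, 1.39 and 6.31 in B97, against 2.24, 2.88 and 1.81 in B73. The groups overlapped, and the third B97 array alone stood above the rest. Its log2 change was 0.087 ± 0.11, with pair differences of 0.019, -0.12 and 0.36. Both nar probe sets were annotated from the same sequence record, and their names differ in the letters S and A. On the whole array 1526 sequence clusters had such a pair of probe sets. The S1 probe set passed the threshold in 160 of them, and in 33 of these 160 the A1 probe set passed too, 32 times in the same direction. Over all 1526 pairs the A1 probe set passed in 249. In 106 of the 160 the A1 change had the same sign as the S1 change, called or not, which was not so for nar. Of the 1526 A1 probe sets, 1207 were at or below the median mean intensity, as were 1389 of the 1526 S1 probe sets.

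MMT1 was lower in B97. It read 72.3, 58.5 and 48.6 in B97, against 101, 101 and 116 in B73, with no overlap. The mean was 59.8 ± 11.9 in B97 and 106 ± 8.66 in B73, a ratio of 0.564. The log2 change was -0.67 ± 0.11, and -0.45 with a pseudocount of 64. Of the 4 probe sets whose lines did not overlap it had the most unequal pairs relative to its change, at -0.45, -0.61 and -0.96, the third pair having more than 2 times the difference of the first.

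The phosphate transporter gene pht1 was the member with a higher signal in B97. It read 130, 122 and 111 in B97, against 75.4, 76.2 and 74.4 in B73. The 3 B73 arrays differed by less than 2 units, and every B97 array lay above them. The mean was 121 ± 9.72 in B97 and 75.3 ± 0.898 in B73, a ratio of 1.61. The log2 change was 0.60 ± 0.071, and the pairs were nearly alike at 0.63, 0.62 and 0.56.

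**Figure D1:**
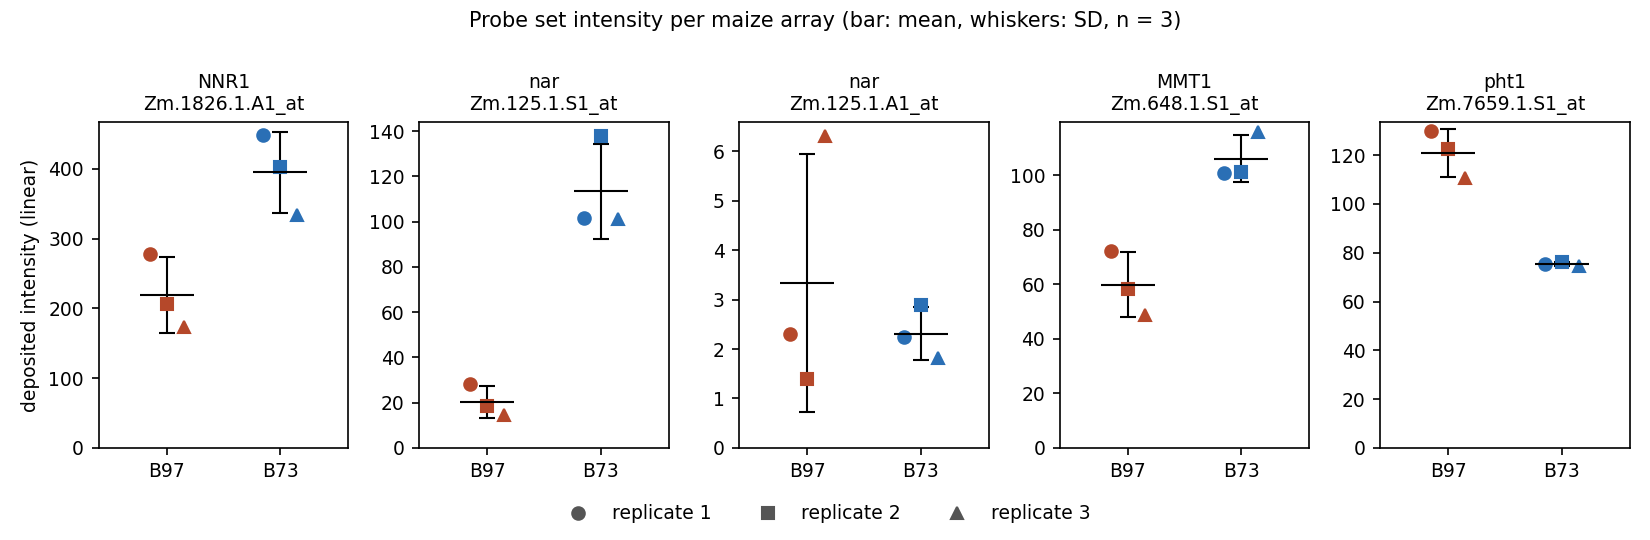
Deposited linear intensity of the 5 probe sets on each maize array, B97 left of B73, with a panel for each probe set and its own axis from 0; bars are means, whiskers SD (n = 3) and symbols mark replicate numbers. NNR1, nar S1 and MMT1 lie lower in B97, pht1 lies higher, and nar A1 overlaps.

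Of the 5 probe sets, 4 passed a Benjamini-Hochberg adjusted p of 0.05 over all maize probe sets with the block, 3 lower and 1 higher in B97. The same threshold was passed by 27.4% of all maize probe sets, 13.2% lower and 14.1% higher, and by 20.7% without the block. The genes had been selected on this contrast, so nothing is read from their count. The deposited intensities of the lines did not overlap for the same 4 probe sets, which was so for 18.5% of all probe sets on the lower side and 15.9% on the higher side. All 3 pairs of arrays had 1 direction in those 4, as in 24.5% of all probe sets lower in B97 and 33.4% higher in B97.

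The sizes were set against all maize probe sets, as a description, since the genes were chosen on this contrast. A fall larger than that of NNR1 was seen in 4.73% of probe sets, larger than that of nar S1 in 1.06%, and larger than that of MMT1 in 6.37%. A rise larger than that of pht1 was seen in 5.02%. Over all maize probe sets the median was 0.032, and it was 0.0039 with values as deposited and 0.077 with median centring.

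**Figure D2:**
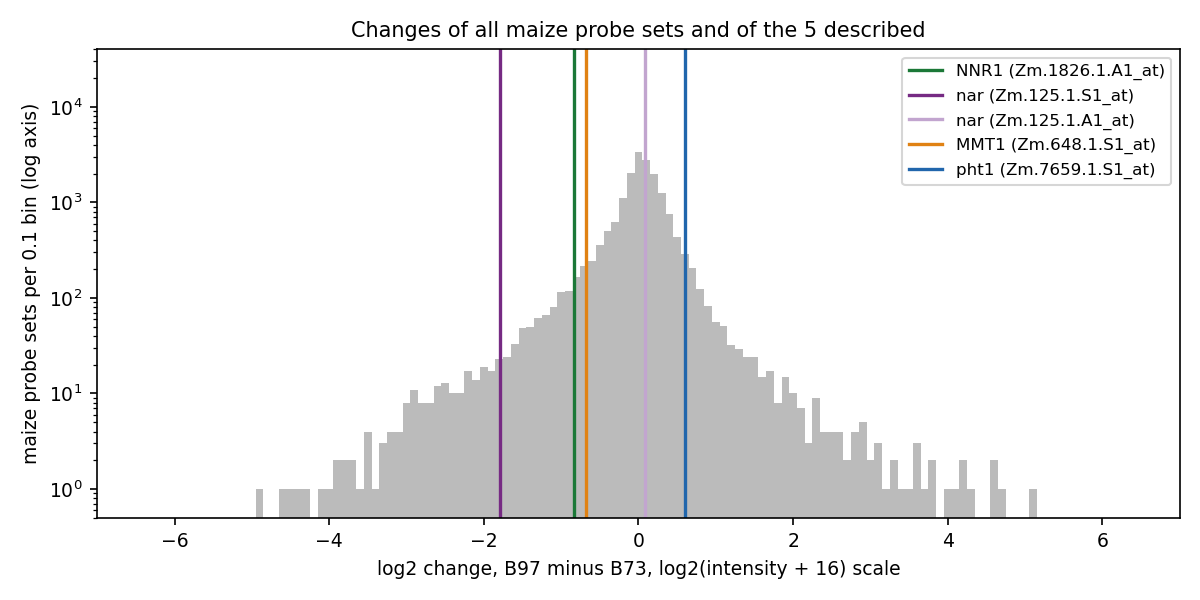
Number of maize probe sets (log axis) by log2 change, B97 minus B73, in bins of 0.1, with a vertical line at the change of each of the 5 probe sets described. The nar S1 line at -1.79 lies far out in the lower tail, NNR1 and MMT1 lie nearer the centre, pht1 lies on the higher side, and nar A1 sits at 0.087.

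The 4 genes shared an ordering of the B97 arrays. NNR1, nar S1, MMT1 and pht1 were each highest on the first B97 array and lowest on the third, although pht1 differed from the others in its direction between the lines. The medians of the B97 arrays had that order too, at 38.7, 36.7 and 33.7. The 4 probe sets kept that order after normalization. Of all maize probe sets, 26.1% had that order as deposited and 20.0% after normalization. In B73 only NNR1 had it. The coefficient of variation was higher in B97 than in B73 for each of the 4, at 24.7% and 14.6% for NNR1, 35.5% and 18.5% for nar S1, 19.9% and 8.16% for MMT1, and 8.04% and 1.19% for pht1. These are deposited intensities, and the medians of the arrays themselves ran from 33.7 to 38.7 in B97 and from 38.4 to 40.3 in B73. The share of all maize probe sets with a higher coefficient in B97 was not counted, so the spread is not read as a trait of these genes. With 3 arrays a line, this difference in spread was not tested.

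Replicate numbers mattered most for NNR1. Its arrays deviated together by number in both lines, by 0.30 and 0.17 on the log2 scale for the first arrays of B97 and B73 and by -0.23 and -0.21 for the third. The SE of its change was 0.082 with the block and 0.16 without it. For nar S1 the SE was 0.14 with the block and 0.15 without, for MMT1 0.11 in both, and for pht1 0.071 and 0.067.

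**Figure D3:**
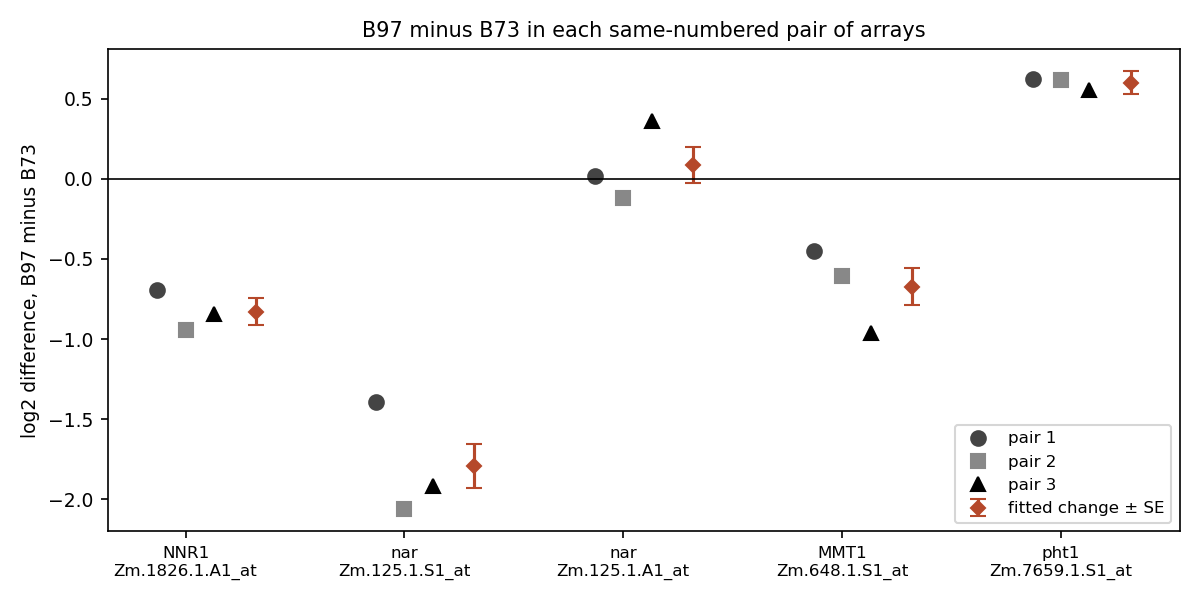
Difference on the log2(intensity + 16) scale, B97 minus B73, in each pair of arrays with the same replicate number for the 5 probe sets, with the fitted change and its SE as a diamond. The pairs of pht1 lie between 0.56 and 0.63, those of MMT1 spread from -0.96 to -0.45, and those of nar A1 fall on both sides of 0.

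RNA quality and array differences were read beside these values. The ratio of 3' to 5' signal of the GAPDH control was 2.09 ± 0.31 in B97 and 3.91 ± 1.78 in B73, the groups not overlapping (exact permutation test, two-sided, p = 0.10, the smallest that 3 against 3 arrays allow). For actin, cyclophilin, ubiquitin and elongation factor the 2 lines overlapped, with exact permutation p-values (two-sided) from 0.40 to 1.0. The second B73 array had the highest ratio of all maize arrays for actin (11.4), GAPDH (5.91), cyclophilin (3.80) and elongation factor (5.57). For ubiquitin the highest ratio, 3.85, was on the third B97 array. The second B73 array was also the brightest B73 array for nar S1. With that array left out the log2 changes were -0.77 for NNR1, -1.66 for nar S1, -0.71 for MMT1 and 0.59 for pht1. The 18S ribosomal control read 1075, 747 and 60.6 in B97, against 1287, 14.7 and 103 in B73, so it split the arrays within each line. The third arrays of both lines had the highest 99th percentile of signal, 1937 in B97 and 1735 in B73. Without both of them the log2 changes were -0.79 for NNR1, -1.75 for nar S1, -0.53 for MMT1 and 0.62 for pht1. The part of RNA quality in the changes was not tested beyond these values.

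Other genes of the same pathways were few in the annotation, where 153 of the maize probe sets have a symbol other than a locus number. Beyond the 4 genes, 9 probe sets of 7 genes of nitrate reduction, phosphate transport, methionine and sulfur metabolism, and molybdenum enzymes could be named. In the limma fit with the block 4 of the 9 rose, 1 fell and 4 did not pass, where 27.4% of all maize probe sets passed. Their median log2 change was 0.17, against 0.032 over all maize probe sets. By limma without the block, 3 of the 9 passed.

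NR, the usual symbol for nitrate reductase, had signals far below the median of the arrays. Its S1 probe set read 5.76, 5.28 and 6.24 in B97, against 5.14, 6.58 and 15.8 in B73, and the third B73 array alone was high. Its log2 change was -0.14 ± 0.12 (limma adjusted p = 0.44). The A1 probe set had a log2 change of -0.10 ± 0.11 (limma adjusted p = 0.58). So of the symbols for nitrate reductase, NNR1 was lower in B97 and neither NR probe set passed the test.

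In phosphate transport, pht7 read 8.29, 5.62 and 5.88 in B97, against 4.00, 0.564 and 4.29 in B73. Every B97 array lay above every B73 array, but all 6 values were dim. Its log2 change of 0.30 ± 0.080 passed with the block (limma adjusted p = 0.044) and missed without it (adjusted p = 0.10). It also missed with values as deposited (adjusted p = 0.087), with a pseudocount of 1 (log2 change 1.24, adjusted p = 0.084) or 64 (log2 change 0.089, adjusted p = 0.11), and when any single array was left out (adjusted p up to 0.17).

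In sulfur metabolism HMT-3, for a homocysteine S-methyltransferase, the enzyme class that uses S-methylmethionine, was higher in B97. It read 386, 396 and 332 in B97, against 302, 299 and 217 in B73. The lowest B97 array lay above the highest B73 array. Its log2 change was 0.42 ± 0.083 (limma adjusted p = 0.016), in the opposite direction to the -0.67 of MMT1. The HMT-3 call missed without the block (adjusted p = 0.063), with a pseudocount of 1 (adjusted p = 0.091) and without the third array of either line (adjusted p up to 0.086). The pairs of arrays differed by 0.32, 0.36 and 0.56 for HMT-3. The difference between the changes of HMT-3 and MMT1 was not tested.

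Methionine is built from aspartate, and AKHSDH1 encodes aspartate kinase joined to homoserine dehydrogenase, early on that route. It read 165, 168 and 139 in B97, against 122, 118 and 119 in B73, without overlap. Its log2 change of 0.37 ± 0.081 passed (limma adjusted p = 0.022), and missed with a pseudocount of 1 (adjusted p = 0.10) and when any single array was left out (adjusted p up to 0.091). The aspartate kinase gene AK1 did not pass. Its S1 probe set had a log2 change of 0.023 ± 0.16 (limma adjusted p = 0.94), which became -0.090 on the deposited scale and -0.017 with median centring. Its dim A1 probe set had 0.17 ± 0.071 (limma adjusted p = 0.14).

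Aldehyde oxidases, like nitrate reductase, need the molybdenum cofactor, and AO1 and AO2 went opposite ways. AO1 read 25.3, 27.9 and 21.9 in B97, against 12.1, 12.7 and 18.3 in B73. AO1 rose by a log2 change of 0.53 ± 0.098 (limma adjusted p = 0.013). AO2 read 5.30, 0.797 and 1.13 in B97, against 11.6, 9.58 and 12.9 in B73, and its log2 change was -0.52 ± 0.096 (limma adjusted p = 0.013). Both genes were dim, and neither pair of groups overlapped. Without the first array of either line AO1 missed the threshold (adjusted p up to 0.053), and without the third array of either line AO2 missed it (adjusted p up to 0.083). With a pseudocount of 1 the log2 change was 0.94 for AO1 and -1.93 for AO2, which missed the threshold (adjusted p = 0.054), and with a pseudocount of 64 it was 0.22 for AO1 and -0.16 for AO2. The molybdenum enzymes with a symbol thus had calls in both directions.

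**Figure D4:**
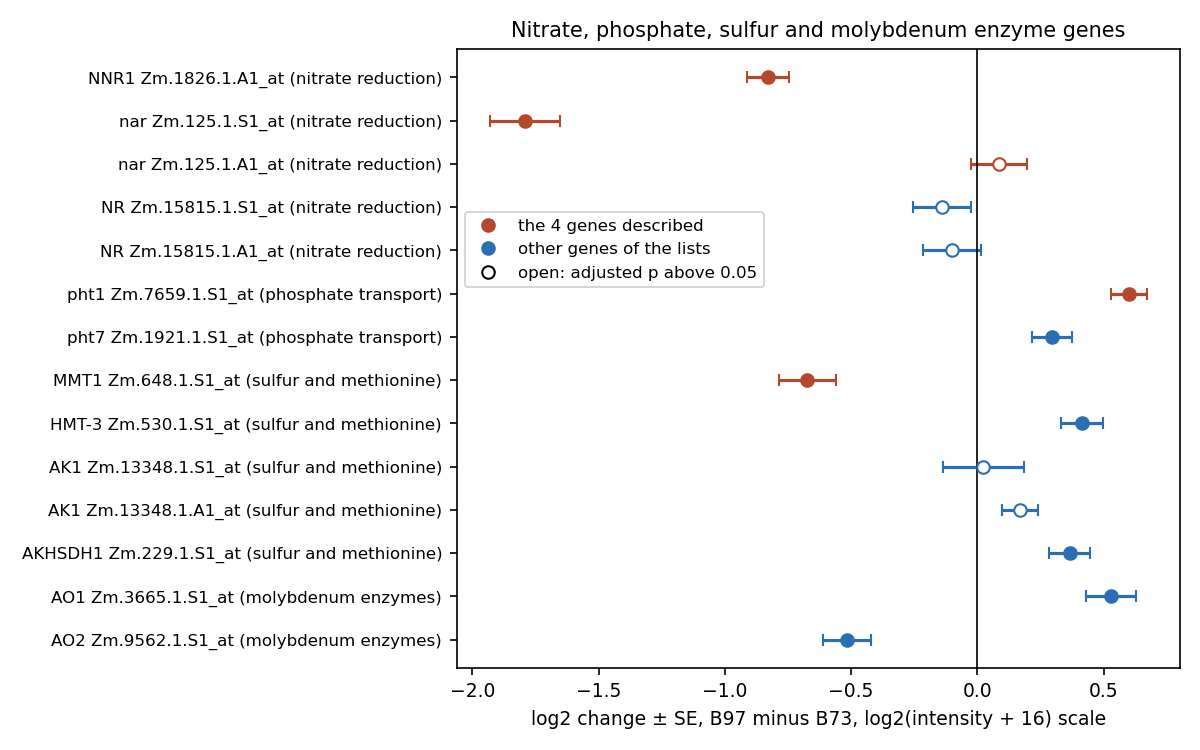
Log2 change, B97 minus B73, with its SE for the 14 probe sets of the pathway lists, filled where the adjusted p was at most 0.05 and open otherwise. NNR1, nar S1, MMT1 and AO2 lie left of 0, and pht1, pht7, HMT-3, AKHSDH1 and AO1 lie right of it.

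Genes with the most similar pattern were sought among 71 probe sets with a gene symbol and a mean intensity above the median. Likeness was the Pearson correlation over the 6 maize arrays, which share the line difference and the array effects, and is a description. NNR1 was closest to mir3 (r = 0.97), to the 12-oxo-phytodienoate reductase gene opr7 (r = 0.96) and to nar S1 (r = 0.94). After the line means were removed, the deviations of NNR1 correlated with those of mir3 (r = 0.85), opr7 (r = 0.77) and nar S1 (r = 0.65). These genes were picked by a correlation that holds the same deviations, so these values are not a separate check. The signal of mir3 was 360 ± 33.2 in B97 and 709 ± 92.0 in B73 (SD, n = 3 each), a log2 change of -0.98.

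For nar S1 the closest were the allene oxide cyclase gene aoc1 (r = 0.98), the Dof zinc finger gene MNB1a (r = 0.98) and a probe set of TCTP (r = 0.97). Their log2 changes were -3.09, -0.67 and -2.19. With line means removed these correlations with nar were 0.46, 0.62 and 0.18. For MMT1 they were the ribosomal protein gene RPL27A (r = 0.97), IPP (r = 0.96) and aoc1 (r = 0.95), with correlations of deviations of 0.65, 0.61 and 0.34.

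For pht1 the closest were another probe set of TCTP (r = 0.98), AKHSDH1 (r = 0.97) and the alpha-tubulin gene tua4 (r = 0.96). The deviations of pht1 were at most 0.026 in size on the log2 scale, so its correlation of deviations with any gene rests on very small values. The TCTP probe set near pht1 had a log2 change of 0.14 and the TCTP probe set near nar had -2.19, so probe sets of this gene disagreed. The second nar probe set had no such close partner, its highest correlations being 0.77 with mbd108, 0.64 with hsp70-5 and 0.64 with IDI2.

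Among the members themselves, NNR1 and nar S1 correlated at 0.94 over the 6 arrays and MMT1 with nar S1 at 0.95. With the line means removed these were 0.65 and 0.33. The correlation of NNR1 with MMT1 was 0.88 over the arrays and 0.18 for the deviations. The pht1 signal, higher in B97, correlated at -0.98 with nar S1, at -0.93 with MMT1 and at -0.91 with NNR1. With the line means removed these were 0.18, 0.97 and 0.049, the deviations of pht1 being very small. Both nar probe sets together gave -0.40 over the arrays and -0.26 for the deviations.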

How the data were processed

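Values were used as deposited by the authors: linear array intensity per probe set, with a mean of 100 on every array after the lowest and highest 2% of values are left out. How probes were summarised is not given in the sources used here. No detection calls or probe sequences were used, so a dim signal is not called absent, and a change is a change in hybridisation to that probe set. Genes were named from the platform annotation supplied with the data: 1 gene was given for 1452 maize probe sets, several for 1 and none for 16168.

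After removing 113 control probe sets, log2(intensity + 16) of the 6 maize arrays was quantile normalized, since array medians ran from 5.64 to 5.81. This log2 scale understates changes of dim probe sets. Quantities given as intensity are the deposited ones. The two-sided limma test (version 3.58.1, R 4.3.3) was fitted over 17621 probe sets with line and replicate number, with Benjamini-Hochberg adjustment and a threshold of 0.05. It was run on simulated arrays with changes planted only in probe sets brighter than the median and with no normalization step. That check set no limit on false calls. The block was set in advance, and no label says what a replicate number shares. Same-numbered arrays had correlations of 0.35, 0.21 and 0.53 between their deviations from the line means. For arrays of unlike number these ran from -0.39 to 0.13, the highest being the second B97 array with the first B73 array.

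Members and lists were chosen with earlier results of these data known. The lists written at the start held NNR1, nar, pht1, MMT1, AO1 and AO2. NR, pht7, HMT-3, AK1, AKHSDH1 and the leaf and zein markers were added after the annotation symbols were read. Similar genes were taken by rule, 3 for each member probe set. Alternatives changed the block, scaling, pseudocount, filter, moderation, array weights, threshold and arrays kept. 0 columns lacked a sample. Plots were drawn with matplotlib 3.10.9.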

Additional observations from a re-analysis of the deposited data

How the results depend on the processing

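Over 15 alternatives the log2 change ran from -0.91 to -0.71 for NNR1, from -2.38 to -1.05 for nar S1, from -0.80 to -0.45 for MMT1 and from 0.42 to 0.69 for pht1. These genes were chosen on this contrast, so nothing is read from their direction or calls. No replicate block gave 3646 calls against 4820 with it, and of the 3646 calls 3582 were shared. Among the genes of the pathway lists it changed the calls of pht7 and HMT-3 alone. With a pseudocount of 1 the log2 change of nar S1 was -2.38, of nar A1 0.35 and of pht1 0.69. There pht7, HMT-3, AKHSDH1 and AO2 missed the threshold (adjusted p from 0.054 to 0.10), AO2 with a log2 change of -1.93, and AK1 A1 passed it. Among the members MMT1 missed it there too, with a log2 change of -0.80. With a pseudocount of 64, nar S1 was at -1.05 and pht1 at 0.42, and with median centring pht1 was at 0.66. The count of called maize probe sets was 2765 with a pseudocount of 1 and 2434 at a threshold of 0.01. Of the 9 other pathway probe sets, 5 passed in the main setting, 3 without the block, 2 with a pseudocount of 1, 2 without dim probe sets, where HMT-3 and AKHSDH1 alone of the 9 were tested, and 0 at a threshold of 0.01 by limma (5 at an unadjusted p under 0.05).

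With each array, or both arrays of a number, left out, the called maize probe sets ranged from 2245 to 3762 and the 9 other pathway probe sets gave 1 to 3 calls. The changes ranged from -0.91 to -0.77 for NNR1, from -1.99 to -1.64 for nar S1, from -0.050 to 0.19 for nar A1, from -0.79 to -0.53 for MMT1 and from 0.58 to 0.63 for pht1. Without the third B97 array 2321 probe sets passed, without the third B73 array 2368, and without both 2245. The uncalled NR and AK1 turned sign without the third array of a line: NR S1 ranged from -0.24 to 0.014, NR A1 from -0.24 to 0.024 and AK1 S1 from -0.23 to 0.17. AK1 S1 was also at -0.090 as deposited and -0.017 with median centring. A left-out array leaves its partner unpaired in the blocked fit, so fewer pairs carry the estimate.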
